A study of Mus musculus with 6 samples.

Results

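The transcripts examined here encode the enzymes that make serine and pass one of its carbons to folate, measured in the heart ventricles of mice with and without Trex1. The 10 genes were Phgdh, Psat1 and Psph of serine synthesis, Shmt2, Mthfd2, Mthfd2l, Mthfd1l and Aldh1l2 of the mitochondrial one-carbon pathway, and Shmt1 and Mthfd1 of its cytosolic counterpart. They were chosen by enzyme family when the differences between Trex1 KO and Trex1 WT on these arrays were already known. The differences of the 10 genes are therefore given as a description and without p-values of single genes. Counts of these genes past a threshold are given beside the share of all tested genes, and nothing is read from them. They are 10 of the 18193 genes with a probe set of their own on the array, and 28 of its 45037 probe sets other than controls name one of them. Each gene is represented below by its brightest probe set, and its other probe sets are given where they differ. All 10 genes passed the filter on low signals, and all 10 would also have passed it on the mean of the Trex1 WT arrays alone.

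Ventricle RNA from 6 mice, 1 array per mouse, was compared between 3 Trex1 WT and 3 Trex1 KO animals. All 6 animals, the Trex1 WT controls included, also lacked Rag2 (RAG2KO in the labels) and therefore cannot form mature T and B cells. The animals formed 3 littermate pairs, here A, B and C, each with 1 animal of either Trex1 genotype, and no age was stated for them. Trex1 degrades DNA in the cytosol, and its absence in mice is known to cause an interferon-driven inflammation of the heart. Signals are MAS5 intensities on a linear scale, and differences are Trex1 KO minus Trex1 WT in log2(signal + 16), which understates changes of dim probe sets.

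The targeted gene was checked first. The probe set shared by Trex1 and its neighbour Atrip gave 714, 340 and 887 on the Trex1 WT arrays of the pairs and 9.45, 20.6 and 34.2 on the Trex1 KO arrays. Its position relative to the deleted part of Trex1 was not examined. The highest signal of the 27 bacterial control probe sets was 69.8, and 4 of 7 lymphocyte markers on the array (Cd3e, Cd4, Cd79a and Cd79b) did not exceed it on any array, while each of the 6 cardiomyocyte markers did on at least 1. The ratio of 3' to 5' signal of Actb, a measure of RNA integrity, was 1.80 to 2.29 in Trex1 WT and 1.60 to 1.68 in Trex1 KO, without overlap. The same ratio of Gapdh overlapped, at 0.85 to 0.925 in Trex1 WT and 0.841 to 0.885 in Trex1 KO. The 3' signal of 18S ribosomal RNA was 12811, 13708 and 924 in Trex1 WT and 2834, 1907 and 798 in Trex1 KO. Trex1 WT C thus lay far below Trex1 WT A and B. In whole tissue, a lower share of a cell type and less RNA per cell cannot be told apart.

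Serine is made from a glycolytic intermediate in the cytosol by Phgdh, Psat1 and Psph, which oxidise, transaminate and dephosphorylate it in turn. Shmt2 in mitochondria, or Shmt1 in the cytosol, then splits serine into glycine and a one-carbon unit carried by tetrahydrofolate. In mitochondria, Mthfd2 or its relative Mthfd2l oxidises that unit, and Mthfd1l releases it as formate, which Mthfd1 in the cytosol takes up again for the synthesis of purines and thymidylate. Mthfd2 is known as an enzyme of embryonic and dividing cells that is scarce in most adult tissues, whereas Mthfd2l is expressed in adult tissues. Mthfd2, Phgdh, Psat1, Shmt2 and Aldh1l2 are also known targets of ATF4, a transcription factor activated by mitochondrial and amino acid stress.

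Mthfd2, the mitochondrial methylenetetrahydrofolate dehydrogenase and cyclohydrolase, had the largest mean difference of the 10 enzymes. Its brightest probe set (1419254_at) gave 46.3, 147 and 111 in the Trex1 WT hearts of pairs A, B and C, the order used throughout. Their Trex1 KO littermates gave 329, 500 and 425. Every Trex1 KO heart lay above every Trex1 WT heart, and the lowest Trex1 WT value, that of pair A, lay below the highest bacterial control. The group means were 102 ± 51.2 and 418 ± 85.5 (SD, n = 3), a 3.93-fold difference on the log2(signal + 16) scale (log2 1.97, SE 0.33). Within the littermate pairs the log2 difference was 2.47 in A, 1.66 in B and 1.79 in C. Of 12811 tested genes, Mthfd2 was number 17 from the most positive difference down and number 19 by absolute size, with the low Trex1 WT value of pair A included.

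The second Mthfd2 probe set (1419253_at) showed the same order with less spread among the controls. It gave 96.8, 108 and 122 in Trex1 WT and 289, 392 and 327 in Trex1 KO. The groups were again apart, with means of 109 ± 12.8 and 336 ± 52.2 (SD, n = 3), and the log2 difference was 1.49 (SE 0.20), or 2.80-fold. Its pair differences were 1.43, 1.72 and 1.31. Pair A thus had the largest difference on the brighter probe set and pair B on the dimmer. On the Trex1 WT arrays alone the dimmer one had the higher mean (109 against 102), so the other was the brighter only through Trex1 KO. The choice by brightness therefore favoured the larger difference, on which the ranks of Mthfd2 and its comparisons with other enzymes rest. Over the 6 arrays the 2 probe sets had a Pearson correlation of 0.95, a description that includes the difference between genotypes.

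Mthfd2l, which catalyses the same mitochondrial step, did not show this pattern. Its brightest probe set (1429599_a_at) gave 417, 433 and 547 in Trex1 WT and 393, 631 and 534 in Trex1 KO. The groups overlapped and the log2 difference was 0.14 (SE 0.19). Only pair B had a clear positive difference, of 0.53 against -0.08 in A and -0.03 in C. Its other 3 probe sets gave mean differences of 0.10, -0.12 and -0.24 with overlapping groups. Each of the 3 pair differences of Mthfd2l lay below each of those of Mthfd2. Pair by pair, the Mthfd2 difference exceeded that of Mthfd2l by 2.55, 1.13 and 1.83 (mean 1.84 ± 0.71, SD over 3 pairs).

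The windows around the transcription starts of these paralogous genes are shown because the genes encode the same activity and differed in the comparison. The sequences are from RefSeq (build GRCm38.p6) and run from 250 bases before to 50 bases after the annotated start, 5′ to 3′ on the strand of the gene. The Mthfd2 window lies at chr6:83317555-83317854 on the minus strand and that of Mthfd2l at chr5:90930946-90931245 on the plus strand. Capitals mark matches on either strand to TGATGNAA (an ATF4 element), GAAA and again GAAA with any 2 bases between (an interferon-stimulated response element) or CCAAT (the CCAAT box), and no matches overlapped.
Mthfd2: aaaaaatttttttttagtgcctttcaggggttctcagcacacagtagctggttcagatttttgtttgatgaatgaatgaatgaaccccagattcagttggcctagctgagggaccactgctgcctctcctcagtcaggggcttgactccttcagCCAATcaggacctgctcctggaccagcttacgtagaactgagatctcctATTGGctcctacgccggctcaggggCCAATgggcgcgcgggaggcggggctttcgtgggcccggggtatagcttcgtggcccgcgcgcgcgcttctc
Mthfd2l: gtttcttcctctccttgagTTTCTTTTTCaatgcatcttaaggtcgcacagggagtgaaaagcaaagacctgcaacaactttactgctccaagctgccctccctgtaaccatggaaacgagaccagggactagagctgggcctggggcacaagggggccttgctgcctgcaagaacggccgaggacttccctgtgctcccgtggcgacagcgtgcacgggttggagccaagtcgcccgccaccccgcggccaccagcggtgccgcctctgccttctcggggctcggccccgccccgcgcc

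The Mthfd2 window held 3 CCAAT boxes, starting 96, 47 and 22 bases before the start, and no match to the ATF4 or interferon letters. The Mthfd2l window held 1 match to the interferon letters, starting 231 bases before the start, and none to the others. Of 32851 such windows of all genes in the table, 3.97% held the ATF4 letters, 3.44% the interferon letters and 37.4% a CCAAT box. Windows were found for 9 of the 10 enzymes (Aldh1l2 had none), 10 windows in all. Counted by gene, 0 of the 9 held the ATF4 letters, 1 the interferon letters and 6 a CCAAT box. These are matches of letters in short windows, and a missing match says only that the letters are not there.

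The groups overlapped for each of the other mitochondrial enzymes. Shmt2, which feeds the pathway by splitting serine to glycine, gave 1116, 907 and 1109 in Trex1 WT and 1133, 960 and 1204 in Trex1 KO. The groups overlapped and each pair differed by at most 0.12 (0.02, 0.08 and 0.12), with a mean log2 difference of 0.07 (SE 0.14). Its other 3 probe sets gave 0.28, 0.65 and -0.15, all with overlapping groups. The 0.65 came from a dim probe set that was not tested and had a signal of 2.40 in Trex1 WT C, where the other 5 arrays gave 67.3 to 88.1.

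Mthfd1l, the mitochondrial formyltetrahydrofolate synthetase that releases formate, was dim, at 63.3, 145 and 76.0 in Trex1 WT and 97.4, 125 and 111 in Trex1 KO. Its groups overlapped (log2 difference 0.26, SE 0.31). Aldh1l2, which oxidises the one-carbon unit to carbon dioxide and yields NADPH, gave 311, 312 and 268 in Trex1 WT and 199, 232 and 347 in Trex1 KO. It was lower in the Trex1 KO animals of pairs A and B (-0.61 and -0.40) and higher in that of pair C (0.35), with a mean of -0.22 (SE 0.22). Neither gene had a second probe set with which to compare.

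**Figure D1:**
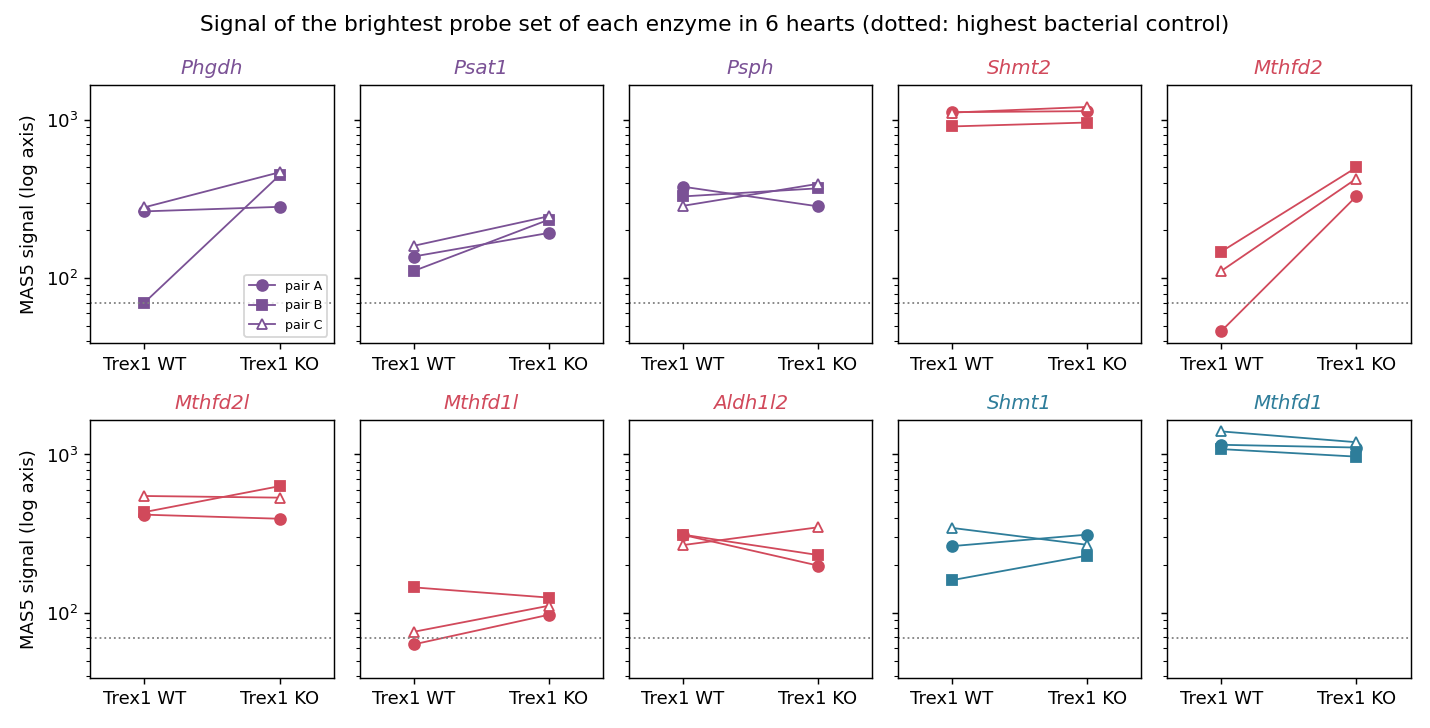
MAS5 signal on a log axis of the brightest probe set of each of the 10 enzymes in the 6 hearts, with a line joining the Trex1 WT and Trex1 KO littermates of pairs A (circles), B (squares) and C (open triangles); purple marks serine synthesis, red mitochondrial and blue cytosolic one-carbon enzymes, and the dotted line is the highest bacterial control, 69.8. Mthfd2 goes from 46.3 to 147 in Trex1 WT up to 329 to 500 in Trex1 KO in all 3 pairs, while the lines of Shmt2 and Mthfd1 are nearly flat.

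The cytosolic one-carbon enzymes showed no common direction. Mthfd1, a trifunctional enzyme that carries out in the cytosol the steps Mthfd2 and Mthfd1l perform in mitochondria, gave 1151, 1081 and 1398 in Trex1 WT and 1106, 969 and 1195 in Trex1 KO. The groups overlapped, with small negative differences in every pair (-0.06, -0.16 and -0.22) and a mean of -0.15 (SE 0.14). Its other probe sets disagreed, with a mean of 0.20 on one and of -0.48 on the other, a probe set open to cross-hybridisation (suffix _x_at) on which all Trex1 KO arrays lay below all Trex1 WT arrays.

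Shmt1, the cytosolic serine hydroxymethyltransferase, gave 264, 161 and 344 in Trex1 WT and 312, 230 and 269 in Trex1 KO on its brightest probe set. Its groups overlapped (log2 difference 0.12, SE 0.26), with 0.23 and 0.47 in pairs A and B and -0.33 in C. Of its other 3 probe sets, the dimmest gave 0.57, with 103, 74.8 and 113 in Trex1 WT and 177, 144 and 130 in Trex1 KO, which did not overlap. The remaining ones gave -0.12 and -0.06, so the probe sets of Shmt1 did not give a single direction.

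Of the serine synthesis enzymes, Psat1 was higher in every Trex1 KO heart on its brighter probe set. Psat1, the phosphoserine aminotransferase, gave 137, 111 and 160 in Trex1 WT and 193, 234 and 246 in Trex1 KO (1451064_a_at). The groups did not overlap, with means of 136 ± 24.3 and 224 ± 27.9 (SD, n = 3), a log2 difference of 0.67 (SE 0.21) or 1.59-fold, and 0.44, 0.98 and 0.57 in the pairs. Its dimmer probe set gave a smaller difference of 0.19 with overlapping groups and -0.20 in pair B.

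Phgdh, which catalyses the first and committed step, was less certain. Its brightest probe set gave 264, 70.1 and 280 in Trex1 WT and 282, 447 and 466 in Trex1 KO. The groups did not overlap, and the mean log2 difference was 1.07 (SE 0.42). The pairs differed widely, with 2.43 in B, whose Trex1 WT value was the low one, against 0.09 in A and 0.70 in C. The other 3 probe sets that name Phgdh alone gave 0.25, 0.00 and -0.01 with overlapping groups, and in pair C each was positive (0.94, 1.45 and 1.08). All 4 carry the suffix _x_at, for probes that can bind similar sequences, and 2 further probe sets name Phgdh together with the predicted genes Gm8096 and Gm6756. The first gave 0.61 without overlap, at signals of at most 44.0 and so below the highest bacterial control, and the second 0.88 with overlap. Psph, which removes the phosphate in the last step, gave 378, 328 and 286 in Trex1 WT and 284, 369 and 394 in Trex1 KO. Its groups overlapped, with a log2 difference of 0.07 (SE 0.18).

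**Figure D2:**
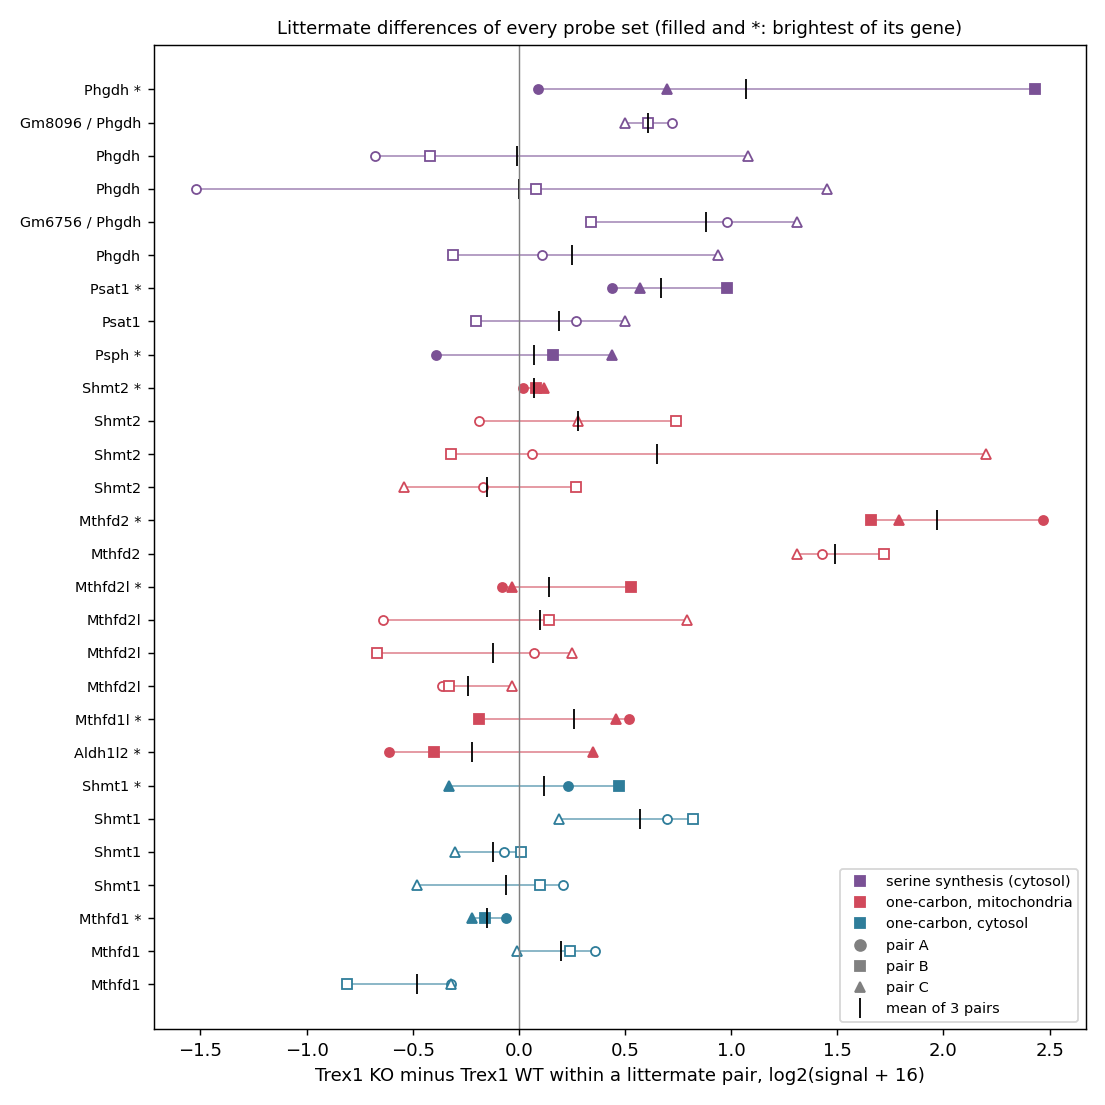
Trex1 KO minus Trex1 WT in log2(signal + 16) within littermate pairs A (circles), B (squares) and C (triangles) for all 28 probe sets that name an enzyme, with a black bar at the mean; filled symbols and an asterisk mark the brightest probe set of a gene, and the colours are purple for serine synthesis, red for mitochondrial and blue for cytosolic one-carbon enzymes. Both Mthfd2 probe sets have all 3 pairs at 1.31 or more, and the probe sets of Phgdh spread from -1.52 to 2.43.

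The medians of mitochondrial and cytosolic one-carbon enzymes differed by less than their spread over the pairs, and Mthfd2 lay above both. The median difference of the 5 mitochondrial enzymes was 0.14 (by pair 0.02, 0.08 and 0.35), that of the other 4 mitochondrial enzymes without Mthfd2 was 0.11 (-0.03, -0.06 and 0.24), and that of the 2 cytosolic enzymes was -0.01 (0.09, 0.16 and -0.28). When the Actb ratio was added to the fit, the medians were 0.04 for the 5 mitochondrial and -0.54 for the 2 cytosolic enzymes, so that they lay further apart. The ratio did not overlap between the genotypes, so this fit cannot tell its part from that of genotype, and nothing is read from the wider gap. The 3 serine synthesis enzymes had a median of 0.67 (0.09, 0.98 and 0.57), which was 0.26 with the Actb ratio, 0.33 with the mean over the probe sets of each gene and 0.40 without pair B. The median over all 12811 tested genes was -0.02. Within pairs, the Mthfd2 difference exceeded that of Mthfd1 by 2.12 ± 0.37 and that of Shmt2 by 1.90 ± 0.48 (SD over 3 pairs), in the same direction in every pair. Against Phgdh the excess was 0.90 ± 1.58, and in pair B the Phgdh difference was the larger one (-0.77). Mthfd2 had the larger difference in every pair against each of the other 8 enzymes.

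In the limma fit over all probe sets, 0 of the 10 enzymes passed a Benjamini-Hochberg adjusted p of 0.05 on their brightest probe sets, against 0.312% of all tested genes that were called higher and 0.039% called lower. In the paired fit, which adds the littermate pair as a block, 1 of the 10, Mthfd2, was called higher and 0 lower, against 0.531% and 0.0937% of genes. At an unadjusted p under 0.05, 3 were higher (Mthfd2, Phgdh and Psat1) and 0 lower, against 3.03% and 2.26% of all tested genes. These 3 were also the ones whose Trex1 KO arrays lay all above the Trex1 WT arrays, a pattern seen for 5.03% of tested genes (5.83% for the opposite order). Counted by probe set, 1 of the 26 tested was called higher, the dimmer one of Mthfd2, against 0.218% of all probe sets, and with the block both Mthfd2 probe sets were, against 0.389%. Because the genes were chosen with this contrast known, the counts describe the 10 enzymes and nothing is read from them.

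The rest of folate and one-carbon metabolism was examined through a list, also chosen with earlier results of these data known. The list held 41 genes of folate transport and reduction, the glycine cleavage system, purine and thymidylate synthesis, and the methionine cycle, of which 35 had a probe set of their own and 29 were tested. In limma 0 were called higher and 0 lower, against 0.312% and 0.039% of all tested genes. With the littermate block it was again 0 and 0, against 0.531% and 0.0937%. At shares this low, 0 calls among 29 genes do not set the list apart from all tested genes. At an unadjusted p under 0.05, 1 of the 29 was higher and 1 lower, near the 3.03% and 2.26% of all tested genes. Their median log2 difference was -0.04, against -0.02 for all tested genes, and the range -0.33 to 0.42, with 13 above and 16 below 0. The largest differences were those of Folr2, a folate receptor found on macrophages, with signals of 461 ± 68.5 and 621 ± 69.5 (log2 0.42, limma adjusted p = 0.812), of Mtr, the methionine synthase, with 1202 ± 230 and 942 ± 34.9 (log2 -0.33, limma adjusted p = 0.901), and of Mtrr, its reductase, with 361 ± 41.0 and 448 ± 47.5 (log2 0.30, limma adjusted p = 0.955). Slc25a32, the carrier that brings folate into mitochondria, had a difference of 0.22 (limma adjusted p = 0.956), and Sfxn1, the mitochondrial serine carrier, one of -0.07 (limma adjusted p = 0.979); both were named after their values were seen.

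Among known targets of ATF4, Asns and Ddit3 had the largest differences. The list, without the 10 enzymes, held 41 genes, of which 36 were tested. In limma 0 passed without the block, where 0.312% of all tested genes were called higher and 0.039% lower. With the block 2, Asns and Ddit3, were called higher, against 0.531% of all tested genes. At an unadjusted p under 0.05, 5 of the 36 were higher and 0 lower, against 3.03% and 2.26% of all tested genes. The median was 0.10, with 27 above and 9 below 0, where all tested genes had 5696 above and 7115 below. The list was chosen with earlier results of these data known. Its counts and the adjusted p-values below are therefore a description, and nothing is read from them. Asns, the asparagine synthetase, gave 290, 288 and 267 in Trex1 WT and 477, 795 and 908 in Trex1 KO, without overlap. Its log2 difference was 1.27 (SE 0.22, limma adjusted p = 0.0629, or 0.0339 in the paired fit, over a range of 0.00946 to 0.620 in the 18 alternatives). Ddit3, the transcription factor CHOP, gave 951, 1162 and 1095 in Trex1 WT and 1867, 3246 and 2142 in Trex1 KO, again without overlap (log2 1.13, SE 0.19). Its limma adjusted p was 0.0504, and 0.00446 with the block, over a range of 0.00446 to 0.704 in the same alternatives. Chac1, which degrades glutathione, gave 312, 452 and 334 in Trex1 WT and 426, 797 and 569 in Trex1 KO, which overlapped (log2 0.66, limma adjusted p = 0.777). The Atf4 transcript itself, named after its value was seen, gave 2327 ± 167 and 2533 ± 213 (SD, n = 3, log2 0.12, limma adjusted p = 0.956).

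The order of the pairs differed between these genes. The difference of Asns was smallest in pair A (0.69, against 1.42 in B and 1.70 in C). That of Ddit3 was largest in pair B (1.47, against 0.96 in both A and C). In pairs A, B and C the brighter Mthfd2 probe set gave 2.47, 1.66 and 1.79, and the dimmer one 1.43, 1.72 and 1.31. The 2 Mthfd2 probe sets thus differed in order themselves. On the brighter one the Trex1 WT signal of pair A, 46.3, lay below the highest bacterial control. In the promoter windows, Asns held 1 match to the ATF4 letters, starting 23 bases before the start, and Ddit3 none. Of the 33 listed ATF4 targets with a window, 16 held a match in any of their windows (37 in all). The 3.97% given above is a share of single windows. The list was made of known ATF4 targets, so this count tells nothing about these hearts.

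**Figure D3:**
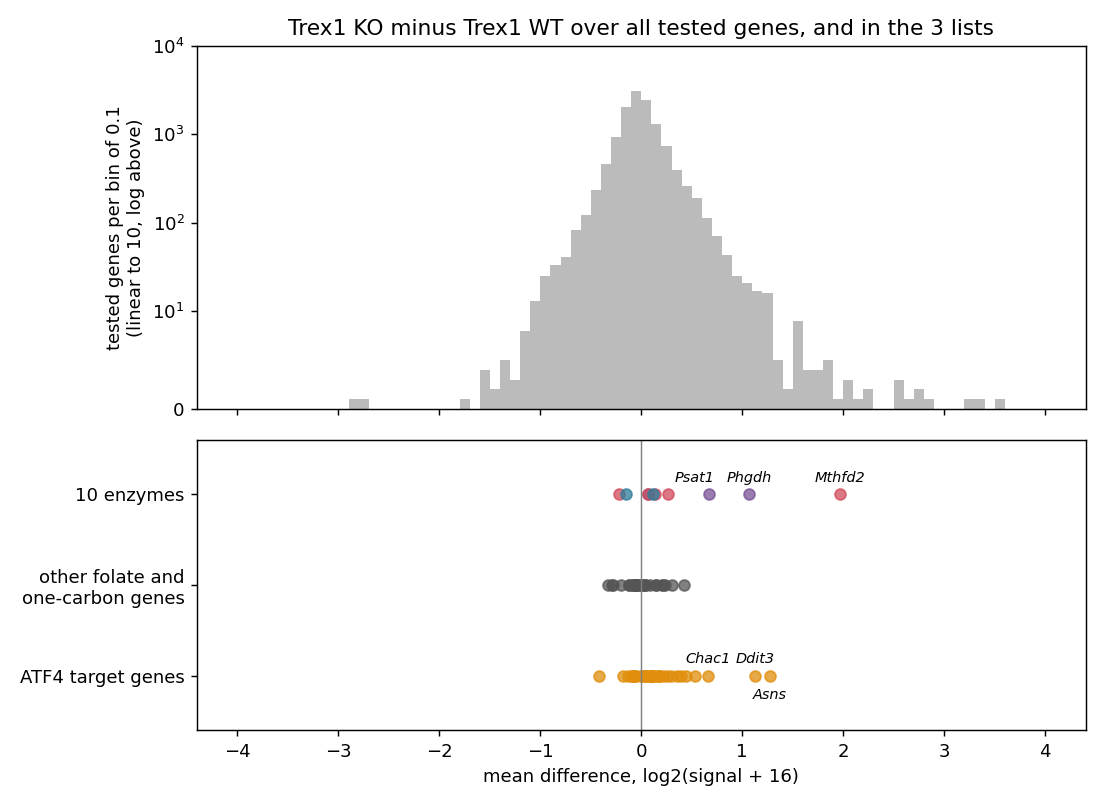
Top, number of tested genes (12811 in all, linear to 10 and logarithmic above) by mean Trex1 KO minus Trex1 WT difference in log2(signal + 16); bottom, the 10 enzymes (purple serine synthesis, red mitochondrial, blue cytosolic), the 29 tested folate and one-carbon genes (grey) and the 36 tested ATF4 targets (orange), 1 point per gene. Mthfd2 at 1.97 lies far to the right of the other enzymes, the folate genes lie between -0.33 and 0.42, and Asns and Ddit3 are the ATF4 targets above 1.

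The genes whose signals followed Mthfd2 most closely over the 6 arrays were Oas1c (Pearson r = 0.997), Angpt1 and Rtp4 (0.988 each), Ms4a4b and Ifitm3 (0.987 each), Ms4a4c (0.986), Dhx58 (0.985), Zbtb32 (0.983), Agpat4 (0.981) and Oasl2 (0.975). Their own log2 differences ran from 0.28 for Angpt1 to 2.25 for Dhx58, and Oasl2, Rtp4 and Dhx58 were called higher in limma (adjusted p = 0.00157, 0.0152 and 0.0474). The Trex1 WT levels of Dhx58, Oas1c and Zbtb32 (means 24.1, 46.0 and 39.0) lay under the filter on low signals, so these genes passed it only through the Trex1 KO arrays and had to differ to be tested. In the paired fit Ifitm3 and Ms4a4c were called too (limma adjusted p = 0.0117 and 0.0120, against 0.247 and 0.0588 without the block). The most opposite were Shb (-0.996), Pip5k1c (-0.989), Parp3 (-0.983), Camk2d (-0.982) and Dguok (-0.981), of which Parp3 was called lower (limma adjusted p = 0.00566). Among the enzymes the correlation with Mthfd2 was 0.80 for Psat1, 0.66 for Mthfd1l, 0.46 for Mthfd2l, 0.45 for Phgdh and 0.10 or less for the other 5. With 6 arrays in 2 genotypes, 436 of 12810 genes reached 0.8, and genes that differ between the genotypes tend to score high, so the order is a description.

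The markers of other cells were compared in the same hearts. The summed signal of the 9 markers of dividing cells on the array was 5484 to 7331 in Trex1 WT and 6282 to 6405 in Trex1 KO, which overlapped. Most of this sum was Pcna, a DNA replication clamp (4070 ± 779 and 3989 ± 110, log2 -0.01). Of the 9 markers, 7 had a positive and 2 a negative difference, with a median of 0.25. The 4 that were positive in all 3 pairs were the proliferation antigen Mki67 (0.45), Birc5 (0.58), the mitotic kinase Cdk1 (0.36) and Mcm5 (0.12). The others (Top2a, Ccna2, Mcm2, Pcna and Rrm2) changed sign between the pairs. How many of all tested genes were positive in all 3 pairs was not counted, so nothing is read from the 4. For each of the 9 the groups overlapped, and limma called 0 with or without the block (0 at an unadjusted p under 0.05 without it). Without the block 0.312% of all tested genes were called higher and 0.039% lower. Macrophage markers summed to 11483 to 18025 in Trex1 WT and 13987 to 18213 in Trex1 KO, and fibroblast markers to 32175 to 40107 and 37490 to 41304, both overlapping. Neutrophil markers summed to 462 to 611 and 389 to 1497, and erythroid markers to 1679 to 4478 and 2324 to 4994. Endothelial markers gave 9748 to 14077 and 9233 to 11950. These overlapped too, with log2 differences of the sums of 0.65, 0.50 and -0.12. The 4 atrial markers did not overlap in sum, at 11343 to 19378 in Trex1 WT and 28573 to 36237 in Trex1 KO. That came from Nppa, a natriuretic peptide also made by stressed ventricle (16165 ± 4540 and 31458 ± 3918, limma adjusted p = 0.126, or 0.00886 in the paired fit), while Myl7 and Myl4 overlapped and Sln did not exceed the highest bacterial control on any array. The part of these cells in the Mthfd2 difference was not tested. The Actb ratio moved with genotype, so a fit that holds both cannot tell their parts from one another. With it as a covariate the difference was 2.03 for Mthfd2, 0.82 for Mthfd1l, 0.27 for Psat1, 0.26 for Psph and -0.42 for Mthfd1, in the direction they had without it. The sign turned for the other 5 of the 10 enzymes, to -0.36 for Phgdh, -0.67 for Shmt1, -0.25 for Mthfd2l, -0.09 for Shmt2 and 0.04 for Aldh1l2. The fit then called 9 of all probe sets against 66 without the ratio.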

How the data were processed

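Biotin-labelled total RNA of heart ventricle was measured on 1-colour arrays. The authors deposited 1 intensity per probe set, summarised by MAS5 according to the submitters' processing notes. The version, settings and build were not given in the sources used here. Each array had a mean of 500.0 after trimming 2% at either end, so no further normalisation was applied. Probe sets (27022 of 45037) were tested from the 40th percentile of mean log2(signal + 16), a signal of 53.8, with limma 3.58.1 in R 4.3.3 (lmFit, eBayes with an intensity trend, two-sided, Benjamini-Hochberg over all tested), over 3 against 3 arrays. The fit was checked on simulated data. Littermate pairs come from the series' design text. After subtraction of the group means, littermates correlated at 0.151, 0.192 and 0.147 and other combinations at most at 0.0101. The subtraction makes the 3 correlations of an array nearly cancel, so the low values of other combinations are not separate evidence of pairing. The fit with pairs as a block was an alternative, beside other pseudocounts and filters, quantile normalisation, no trend, the Actb ratio, the mean over a gene's probe sets, and leaving out arrays or pairs. Symbols came from the platform annotation, updated through a RefSeq gene table of GRCm38.p6; 26 probe sets named 1 enzyme alone and 2 named Phgdh with another gene. The members, gene lists and motifs were chosen with earlier results of these data known. Named genes were the 10 enzymes, the 10 genes most and the 5 least correlated with Mthfd2, the list members past the threshold and the 3 furthest from 0, and Trex1 and Rag2 (Rag2 signal 51.5 ± 38.8 and 76.2 ± 18.7). The number of arrays limits precision, and p-values reflect only how these animals varied.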

Additional observations from a re-analysis of the deposited data

How the results depend on the processing

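The difference of Mthfd2 lay between 1.57 and 2.27 in the 15 alternatives in which it was recomputed, and neither its sign nor that of the serine synthesis median (0.26 to 0.78) changed in them. The replicate block, which is among them, cannot move either value because every pair holds both genotypes. Apart from the mean over the probe sets of each gene (1.73), all of them kept the brighter Mthfd2 probe set. The dimmer one gave 1.49 in the main analysis, outside the range of 1.57 to 2.27. The median of the mitochondrial enzymes ranged from 0.07 to 0.32 when single arrays were left out, the highest without Trex1 KO A, and that of the cytosolic enzymes was -0.54 with the Actb ratio as a covariate (mitochondrial 0.04). Mthfd2 was the 1 enzyme called higher with littermate pairs as a replicate block, with a pseudocount of 64, with the mean over the probe sets of each gene and without Trex1 WT B (0 to 1 when single arrays were left out). In the other 14 alternatives 0 were called. These calls describe how the count moves and are no support for the difference, as the enzymes were chosen with this contrast known. The ATF4 targets called higher numbered 2 with the replicate block, 1 with a pseudocount of 64, 1 with the 60th percentile as filter, 1 without pair B and 0 to 2 without single arrays, the 2 without Trex1 KO A. The ATF4 list too was chosen with earlier results of these data known, so its counts are a description. Of all probe sets, 66 were called in the main analysis, 121 with the replicate block, 28 without the intensity trend, 9 with the Actb ratio, 23 and 38 without pairs A and C, and 40 (without Trex1 KO B) to 94 without single arrays; without Trex1 KO C it was 42. Folate genes and lower calls among enzymes and ATF4 targets were 0 in all 18 alternatives. The causes were not tested. Signals near the bacterial controls, as for Mthfd2 in Trex1 WT A and Mthfd1l, limit the precision of their differences.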
